A study of Mus musculus with 8 samples.

Results

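The 10 genes described here encode the core of the inflammasome and of pyroptosis: the sensors *Nlrp3*, *Nlrp1b*, *Aim2* and *Mefv*, the adaptor *Pycard*, the caspases *Casp1* and *Casp4*, the pore-forming effector *Gsdmd*, the cytokine *Il18* and the interleukin-1 receptor antagonist *Il1rn*. They were chosen by name as genes of this pathway, with earlier results of these data known. All 10 were found by symbol among the 47937 gene IDs of both deposited count tables. All 10 passed the filter on low counts in every comparison. The RNA came from bone marrow-derived dendritic cells (BMDCs), which are grown from mouse bone marrow in medium with the growth factor GM-CSF. There were 4 groups of 2 libraries each: WT unstimulated, WT with LPS, 3xGrk-/- unstimulated and 3xGrk-/- with LPS. The labels give the genotypes as WT and KO. The marrow of the 3xGrk-/- cultures carried a Vav-iCre transgene together with floxed *Grk2* (fl/fl), floxed *Grk6* (fl/fl) and *Grk3*-/- alleles, and WT marrow lacked the Cre. Donors were adult mice on a C57BL6/J background. The Cre is active already in precursors of blood cells, so that the deletion precedes the culture. Any differences in how the cultures developed were not separated from other effects of the genotype in these comparisons. Stimulated cultures received 20 ng/ml LPS for 24 h, and all cultures had GM-CSF throughout. The study describes its replicates as technical and as more per group than the labels hold, so that what the pairs of libraries repeat is uncertain. The p-values therefore measure only the spread between libraries, which may be technical.

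Inflammasomes are protein platforms that assemble in the cytosol when a sensor meets a microbial or damage signal. The adaptor ASC, encoded by *Pycard*, links the sensor to caspase-1, which matures interleukin (IL)-1β and IL-18 and cleaves gasdermin D, whose released fragment perforates the plasma membrane in the form of cell death called pyroptosis. The mouse *Casp4* protein binds LPS inside the cell and cleaves gasdermin D directly. In myeloid cells, LPS at the cell surface is known as a priming signal that raises transcripts of *Nlrp3* and *Il1b*, whereas the assembly itself is a step of proteins that RNA counts do not measure.

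Sequences before the start sites of 6 of these genes are shown because *Casp1*, *Casp4*, *Nlrp3*, *Il1rn*, *Mefv* and *Pycard* were all higher in 3xGrk-/- than in WT libraries after LPS. *Gsdmd* was higher as well, but no sequence was held for it. A further reason is that *Casp1* and *Casp4* are neighbours on the same strand of chromosome 9, with 1562 bases between them. Each run is the 250 bases before a RefSeq start site, 1 for each gene, on GRCm38.p6, 5′ to 3′ on the strand of the gene. Further start sites of *Casp4*, *Nlrp3* and *Il1rn* were held and are not printed. Capitals mark the letters GGNNTTTCC, a motif of the kind bound by NF-κB, or their reverse complement.
Casp1, chr9:5298267-5298516, plus strand, outside annotated exons: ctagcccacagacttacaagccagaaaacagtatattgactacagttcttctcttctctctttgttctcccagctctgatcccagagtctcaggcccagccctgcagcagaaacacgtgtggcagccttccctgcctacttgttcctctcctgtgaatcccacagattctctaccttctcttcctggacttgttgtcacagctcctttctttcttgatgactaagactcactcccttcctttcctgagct
Casp4, chr9:5308599-5308848, plus strand, with 21 bases in the first exon: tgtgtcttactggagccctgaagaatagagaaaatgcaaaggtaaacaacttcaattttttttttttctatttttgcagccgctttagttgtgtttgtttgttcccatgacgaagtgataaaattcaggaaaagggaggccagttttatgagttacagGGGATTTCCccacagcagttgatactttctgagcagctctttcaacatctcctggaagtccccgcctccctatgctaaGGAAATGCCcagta
Nlrp3, chr11:59542436-59542685, plus strand, inside the gene and outside its exons: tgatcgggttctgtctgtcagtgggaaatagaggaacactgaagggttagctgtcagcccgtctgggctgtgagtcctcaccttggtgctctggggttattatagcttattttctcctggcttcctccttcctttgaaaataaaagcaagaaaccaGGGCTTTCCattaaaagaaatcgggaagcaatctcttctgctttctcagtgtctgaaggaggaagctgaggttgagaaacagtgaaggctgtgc
Il1rn, chr2:24345041-24345290, plus strand, inside the gene with 3 bases in an exon: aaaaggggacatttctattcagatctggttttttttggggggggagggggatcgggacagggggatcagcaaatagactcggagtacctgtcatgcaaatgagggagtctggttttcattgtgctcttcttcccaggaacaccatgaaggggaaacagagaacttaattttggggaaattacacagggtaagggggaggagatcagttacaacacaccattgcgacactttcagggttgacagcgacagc
Mefv, chr16:3718125-3718374, minus strand, outside annotated exons: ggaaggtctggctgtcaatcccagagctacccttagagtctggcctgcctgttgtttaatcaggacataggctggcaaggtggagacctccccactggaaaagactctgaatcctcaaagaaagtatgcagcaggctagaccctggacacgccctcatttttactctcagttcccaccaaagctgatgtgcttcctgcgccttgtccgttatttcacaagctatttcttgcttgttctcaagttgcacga
Pycard, chr7:127993868-127994117, minus strand, outside annotated exons: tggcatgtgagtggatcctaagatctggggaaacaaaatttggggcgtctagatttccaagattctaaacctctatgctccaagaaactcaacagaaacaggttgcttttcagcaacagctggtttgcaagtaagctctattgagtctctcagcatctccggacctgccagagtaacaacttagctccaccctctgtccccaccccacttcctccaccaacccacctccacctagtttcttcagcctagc

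RefSeq windows from 250 bases before to 50 bases after a start site were held for 9 of the 10 genes, 14 windows in all, some of which overlap. The letters GGNNTTTCC were found on either strand in 6 of the 14 windows and in 5.82% of all 32851 windows of this length. Counted by gene, at least 1 window held them for 3 of the 9 genes, *Casp4*, *Nlrp3* and *Il1rn*, and for 6.62% of all 27025 genes with a window. Overlapping windows of *Casp4* and of *Il1rn* hold the same matches, and a further *Il1rn* window holds none. In *Il1rn* the match GGTTTTTCC lies 31 bases after the start site of the window printed above. The letters GAAANNGAA, TTCNNNGAA and TGACGTCA, of the kinds bound by IRF, STAT and CREB factors, were in none of the 14 windows and in 8.56%, 8.30% and 1.79% of all windows. Of the 4 sets of letters, only GGNNTTTCC was thus present in these windows, and a match is a description of the sequence only.

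The targeted transcripts were lower in every 3xGrk-/- library. *Grk2* was left at 46.4% of its WT level without LPS and at 27.1% with LPS, and *Grk6* at 43.8% and 34.5%. *Grk3* was left at 78.1% and 75.0%, a small reduction for a deletion that all cells carry. The counts cover whole genes, and the exons that each allele removes are not given in the sources used here. The libraries held 4713305 to 6933358 reads on genes. Of the 8 dendritic cell markers tested, 3 were higher and 5 lower in 3xGrk-/- libraries without LPS, and 2 higher and 6 lower with LPS. Their summed level was above that of every other marker list in all libraries, at 21790 to 22010 CPM in unstimulated WT, 11800 to 12040 in unstimulated 3xGrk-/-, 14770 to 16150 in LPS-stimulated WT and 12840 to 13070 in LPS-stimulated 3xGrk-/- libraries, where CPM are counts scaled to libraries of 1000000 reads. In unstimulated WT, the largest parts of the dendritic cell sum were *Cd74*, *H2-Aa* and *H2-Ab1*, at means of 11930, 3969 and 3519 CPM. The study describes the macrophage-like cells of such cultures as positive for MHC class II too. The sum is therefore not a measure of dendritic cells alone. Of 10 macrophage markers, 5 were higher and 4 lower without LPS, and all 10 were higher with LPS. Over all genes, 22.1% were higher and 22.7% lower without LPS and 24.7% higher and 24% lower with LPS. The summed level of the macrophage markers was 1016 to 1043 CPM in unstimulated WT, 1497 to 1552 in unstimulated 3xGrk-/-, 406 to 412 in LPS-stimulated WT and 2782 to 2841 in LPS-stimulated 3xGrk-/- libraries. The 4 eosinophil markers summed to 892 to 962 CPM over the 4 WT libraries and to 36.1 to 56.9 CPM over the 4 3xGrk-/- libraries. Of the eosinophil markers, 3 of 4 were called lower without and 4 of 4 with LPS. Of the neutrophil markers, 6 of 9 were called lower without and 6 of 8 with LPS and none higher, with summed levels in 3xGrk-/- libraries of 446 to 450 against 634 to 665 CPM in WT without LPS and of 139 to 157 against 263 to 304 CPM with LPS. Mast cell and basophil markers summed to 64.2 to 90.6 CPM over all libraries, and lymphocyte markers reached at most 1.54 CPM, with *Cd3e* at 0 counts in 3 of the 4 groups. In such bulk RNA, a change in the share of cells that express a gene and a change of its RNA per cell cannot be told apart, and the part of these markers' cells in the results below was not tested.

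**Figure D1:**
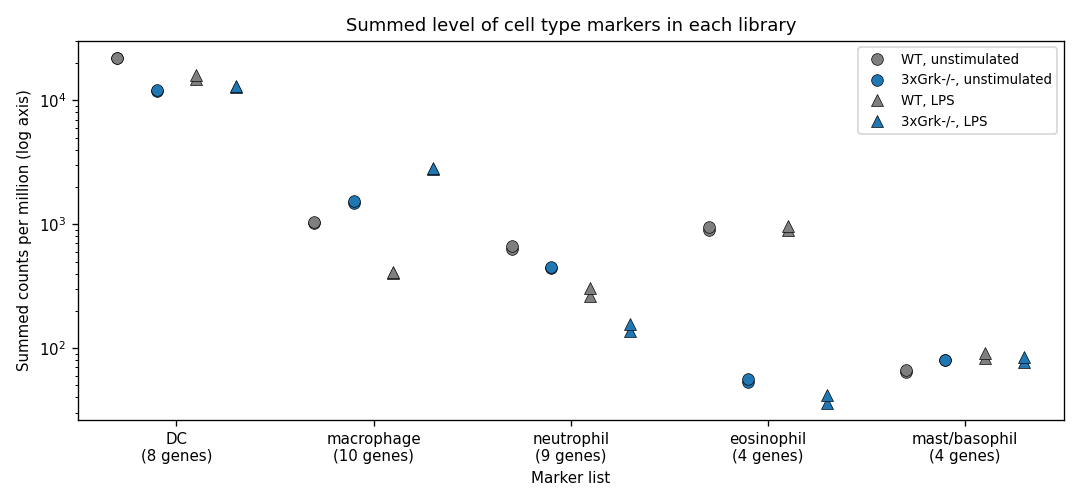
Summed level of each marker list in CPM (log axis) for the 2 libraries of each group, with circles for unstimulated and triangles for LPS-stimulated libraries, grey for WT and blue for 3xGrk-/-. The macrophage sums of the LPS-stimulated groups lie at 406 to 412 in WT and 2782 to 2841 in 3xGrk-/-, and the eosinophil sums are lower in all 4 3xGrk-/- libraries.

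Levels per kilobase of exon set different genes side by side, but the order of genes depends on lengths that join the exons of all annotated forms. For *Pycard* this length was 3800 bases, in a gene that spans 4160. On this scale, *Gsdmd* had the highest level of the 10 genes in WT libraries of both stimulations. It was at 50.02 to 51.98 CPM per kb without and 56.1 to 63.3 with LPS. In 3xGrk-/- libraries *Il1rn* was first, at 87.7 to 88.2 CPM per kb without and 321 to 331 with LPS. At the lower end, *Mefv* was last in unstimulated WT libraries at 0.861 to 1.06 CPM per kb, and *Nlrp1b* was last in LPS-stimulated libraries at 0.202 to 0.367. *Nlrp3* and *Casp1*, *Pycard* and *Aim2*, and *Il18* and *Casp4* were neighbours in that order whose libraries overlapped in unstimulated WT cells. With LPS in 3xGrk-/- cells, no 2 neighbours of the order overlapped.

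**Figure D2:**
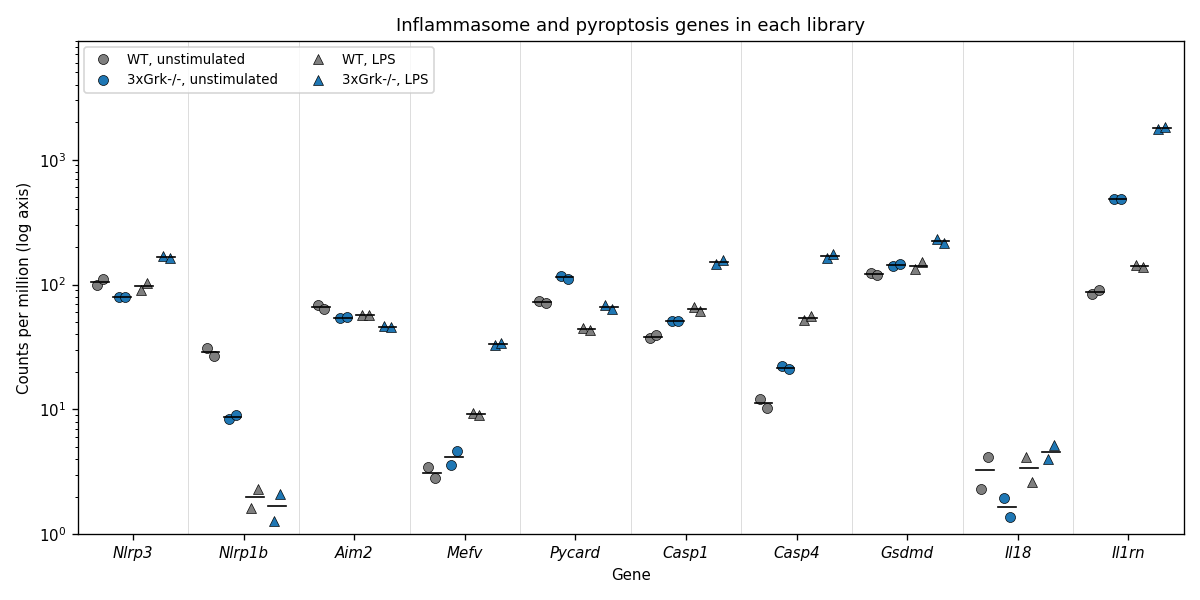
CPM (log axis) of the 10 genes in every library, with circles for unstimulated and triangles for LPS-stimulated libraries, grey for WT, blue for 3xGrk-/- and a black line at the mean of 2 libraries. Il1rn climbs from 84.5 and 90.2 CPM in unstimulated WT to 1774 and 1833 CPM in LPS-stimulated 3xGrk-/- libraries, while Nlrp1b falls to 1.27 to 2.32 CPM with LPS in both genotypes.

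How the depletion of 3 GRKs changed these genes was asked first in resting and then in LPS-stimulated cells. Without LPS, *Il1rn*, *Casp4*, *Pycard*, *Casp1* and *Gsdmd* were higher in 3xGrk-/- than in WT cells, by 5.57-fold for *Il1rn* and 1.18-fold to 1.91-fold for the others, and *Nlrp1b*, *Il18*, *Nlrp3* and *Aim2* were lower. Thus 9 of the 10 genes passed edgeR's quasi-likelihood test at a Benjamini-Hochberg adjusted p under 0.05, 5 of them higher and 4 lower. With 1 biological coefficient of variation of 0.1 set for every gene, *Casp1*, *Gsdmd*, *Il18* and *Aim2* lost the call and 5 genes kept it, and at 0.4 only *Il1rn* did. A minimum log2 fold change of 1 in either direction left 3. Of all 12000 genes tested, 44.7% passed, 22.1% higher and 22.7% lower. The median log2 fold change of the 10 genes was 0.33, beside a median near 0 over all genes.

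With LPS, *Il1rn*, *Mefv*, *Casp4*, *Casp1*, *Nlrp3*, *Gsdmd* and *Pycard* were higher in 3xGrk-/- cells, by 12.8-fold for *Il1rn* and 1.5-fold to 3.66-fold for the others, and *Aim2* was lower. Here 8 of the 10 genes passed the test, 7 higher and 1 lower, with 7 called at a coefficient of 0.1, where *Aim2* was lost, 2 at 0.4 (*Il1rn* and *Mefv*) and 4 with the minimum fold, while 48.6% of 11830 genes passed, 24.7% higher and 24% lower. The median log2 fold change of the 10 genes was 0.71, again beside a median near 0 over all genes. The same libraries held more RNA of all 10 macrophage markers, and the part of macrophages in these values was not tested. Scaling to library size alone moved the median of all genes by less than 0.1 on the log2 scale and left these counts of members at 5 higher and 4 lower without LPS and 7 higher and 1 lower with LPS, although over all genes the share of higher genes among those called went from 49.3% to 35.8% without and from 50.7% to 40.9% with LPS.

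**Figure D3:**
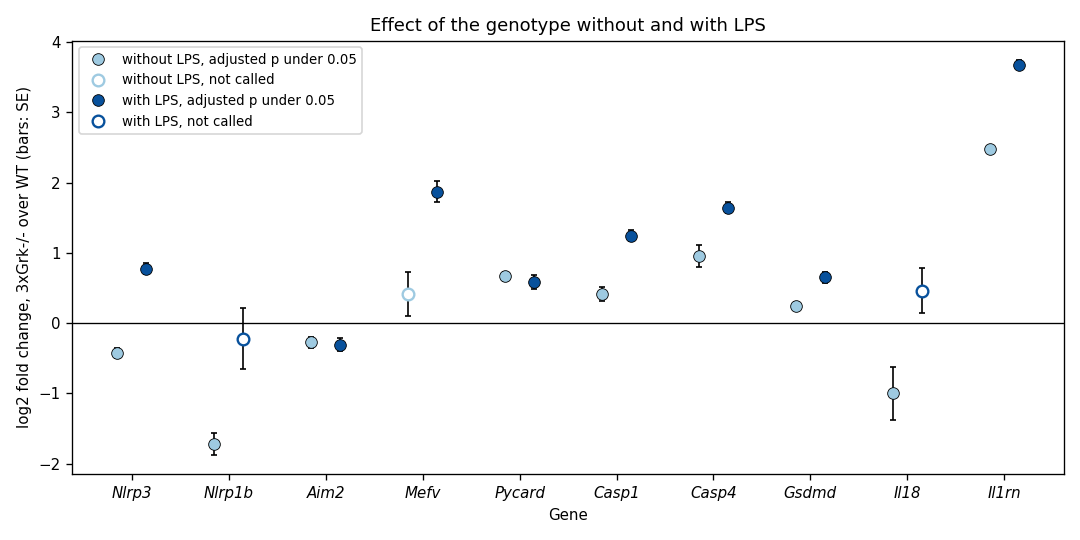
log2 fold change of 3xGrk-/- over WT for each gene without LPS (light blue) and with LPS (dark blue), with bars of 1 standard error and open circles for values that did not pass the adjusted p of 0.05. Il1rn is the highest in both, at 2.47 and 3.68, and Nlrp3 lies below 0 without LPS and above 0 with LPS.

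Among the sensors, *Nlrp3*, which responds to potassium efflux and many other danger signals, turned its direction between the stimulations. *Nlrp3* (ENSMUSG00000032691, chr11:59541568-59566956 on GRCm38, plus strand) was measured at 99.2 and 112 CPM in WT and at 78.8 and 79.2 CPM in 3xGrk-/- libraries without LPS. With LPS it was at 90.0 and 104 CPM in WT and at 168 and 164 CPM in 3xGrk-/- libraries. Of all genes tested, 69.1% without LPS and 72.6% with LPS had pairs that did not overlap between genotypes. These shares apply to the genes below too. Both 3xGrk-/- libraries of *Nlrp3* were below both WT libraries without LPS and above them with LPS. The log2 fold change was -0.43 ± 0.07 (SE) without LPS (edgeR adjusted p = 2e-09) and 0.78 ± 0.08 with LPS (edgeR adjusted p = 3.51e-08). *Ifi203*, a sensor-like gene of the HIN-200 family whose reads may be split with close relatives, showed the same turn, at 82.8 and 78.6 against 28.4 and 25.1 CPM without LPS and at 49.3 and 40.8 against 152 and 159 CPM with LPS, WT first. The sensor *Nlrc4* and the macrophage markers *Fcgr1*, *C1qa*, *C1qb* and *C1qc* were likewise called lower without and higher with LPS, so that this turn was not particular to *Nlrp3*.

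*Nlrp1b* (ENSMUSG00000070390, chr11:71153102-71230733, minus strand), a further sensor, was the gene of the set with the largest reduction. Its level was 30.9 and 26.7 CPM in WT and 8.36 and 9.01 CPM in 3xGrk-/- libraries without LPS. LPS left 1.63 and 2.32 CPM in WT and 1.27 and 2.1 CPM in 3xGrk-/- libraries, from 9 and 15 and from 7 and 13 counts. The groups were well apart without LPS and overlapped with LPS. Without LPS, *Nlrp1b* was 3.32-fold lower in 3xGrk-/- cells, with a log2 fold change of -1.72 ± 0.15 (edgeR adjusted p = 1.15e-27). With LPS, the log2 fold change of -0.22 ± 0.43 had a 95% interval from -1.07 to 0.62 (edgeR adjusted p = 0.698), so that a difference was not detectable at this depth. *Nlrp1b* has near-identical relatives such as *Nlrp1a*, among which reads may be split, and its values are uncertain for this reason.

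*Aim2* (ENSMUSG00000037860, chr1:173350879-173466040, plus strand), which binds double-stranded DNA, was lower in 3xGrk-/- cells by small amounts. Unstimulated libraries held 68.5 and 63.5 CPM in WT and 54.0 and 54.6 CPM in 3xGrk-/- cells. With LPS, 57.4 and 56.7 CPM were measured in WT and 47.0 and 45.3 CPM in 3xGrk-/- libraries. In both stimulations the 3xGrk-/- pair was below the WT pair, by 1.21-fold without LPS (edgeR adjusted p = 0.0027) and by 1.24-fold with LPS (edgeR adjusted p = 0.013). DESeq2 called neither difference, with adjusted p = 0.118 and 0.131, nor did edgeR at a coefficient of variation of 0.1 (adjusted p = 0.233 and 0.144), and the second was also lost without either 3xGrk-/- LPS library (edgeR adjusted p = 0.0713 without replicate 1 and 0.154 without replicate 2).

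*Mefv* (ENSMUSG00000022534, chr16:3707218-3718097, minus strand) encodes the sensor pyrin. It was at 3.43 and 2.80 CPM in WT and at 3.58 and 4.68 CPM in 3xGrk-/- libraries without LPS, a difference that did not pass the test (log2 fold change 0.41 ± 0.31, edgeR adjusted p = 0.284). With LPS, it was at 9.42 and 8.96 CPM in WT and at 32.9 and 34.3 CPM in 3xGrk-/- libraries. This difference of 3.66-fold was far larger than the spread within either pair (log2 fold change 1.87 ± 0.15, edgeR adjusted p = 1.01e-09). After *Il1rn*, it was the largest difference of the 10 genes in LPS-stimulated cells.

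The adaptor gene *Pycard* (ENSMUSG00000030793, chr7:127989708-127993867, minus strand) was at 73.2 and 71.1 CPM in WT and at 117 and 111 CPM in 3xGrk-/- libraries without LPS. With LPS, the values were 44.6 and 43.4 CPM in WT and 68.6 and 63.6 CPM in 3xGrk-/- libraries. In each stimulation both 3xGrk-/- libraries were above both WT libraries. The excess was much the same in both, 1.58-fold without LPS (log2 fold change 0.67 ± 0.07, edgeR adjusted p = 1.31e-21) and 1.5-fold with LPS (0.59 ± 0.10, edgeR adjusted p = 3.86e-05). Of its 3800 exonic bases, 485 lie opposite the predicted gene *Gm45205*, to which only 2 reads were assigned over all libraries.

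*Casp1* (ENSMUSG00000025888, chr9:5298517-5307265, plus strand), the protease that inflammasomes activate, was at 37.4 and 39.2 CPM in WT and at 51.4 and 51.0 CPM in 3xGrk-/- libraries without LPS. LPS-stimulated libraries held 66.6 and 61.6 CPM in WT and 146 and 157 CPM in 3xGrk-/- cells. Within each stimulation, no library of one genotype fell into the range of the other. The excess in 3xGrk-/- cells was 1.34-fold without LPS (log2 fold change 0.41 ± 0.09, edgeR adjusted p = 4.51e-05) and 2.36-fold with LPS (1.24 ± 0.08, edgeR adjusted p = 3.95e-11). The first was not called at a coefficient of variation of 0.1 (edgeR adjusted p = 0.0546).

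The neighbouring *Casp4* (ENSMUSG00000033538, chr9:5308828-5336783, plus strand), whose upstream sequence is printed above, was at 12.2 and 10.4 CPM in WT and at 22.09 and 20.97 CPM in 3xGrk-/- libraries without LPS. With LPS, it reached 51.8 and 56.5 CPM in WT and 163 and 176 CPM in 3xGrk-/- libraries, the highest levels of this gene. The order of the 4 groups was the same as for *Casp1*. Its difference between genotypes was 1.91-fold without LPS (log2 fold change 0.95 ± 0.16, edgeR adjusted p = 4.99e-09) and 3.13-fold with LPS (1.65 ± 0.08, edgeR adjusted p = 3.84e-13).

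*Gsdmd* (ENSMUSG00000022575, chr15:75862327-75867408, plus strand), the executioner, was at 124 and 119 CPM in WT and at 142 and 145 CPM in 3xGrk-/- libraries without LPS. With LPS, 134 and 151 CPM were measured in WT and 231 and 215 CPM in 3xGrk-/- libraries. The pairs did not overlap in either stimulation, as for 69.1% of all genes tested without LPS and 72.6% with LPS. The excess without LPS was small, 1.18-fold (log2 fold change 0.24 ± 0.06, edgeR adjusted p = 9.64e-05). It was not called at a coefficient of variation of 0.1 (edgeR adjusted p = 0.288). With LPS it was 1.57-fold (0.65 ± 0.07, edgeR adjusted p = 1.62e-07).

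The cytokine gene *Il18* (ENSMUSG00000039217, chr9:50554827-50581840, plus strand) was rare, with 8 to 32 counts per library, and these counts set its precision. Unstimulated WT libraries held 12 and 30 counts (2.29 and 4.2 CPM) and unstimulated 3xGrk-/- libraries 13 and 8 counts (1.94 and 1.39 CPM). With LPS, 23 and 17 counts (4.17 and 2.63 CPM) were found in WT and 22 and 32 counts (3.99 and 5.18 CPM) in 3xGrk-/- libraries. The difference without LPS passed the test as lower in 3xGrk-/- cells (log2 fold change -1.0 ± 0.38, edgeR adjusted p = 0.0189), but not without replicate 2 of WT (-0.44, edgeR adjusted p = 0.614) or without replicate 2 of 3xGrk-/- (-0.80, edgeR adjusted p = 0.174), and neither DESeq2 (adjusted p = 0.335) nor edgeR at a coefficient of variation of 0.1 (adjusted p = 0.0527) called it. With LPS the groups overlapped and the log2 fold change of 0.46 ± 0.32 had a 95% interval from -0.16 to 1.09 (edgeR adjusted p = 0.245).

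*Il1rn* (ENSMUSG00000026981, chr2:24336853-24351494, plus strand), whose product occupies the IL-1 receptor without signalling, differed most of the 10 genes. It was at 84.5 and 90.2 CPM in WT and at 485 and 488 CPM in 3xGrk-/- libraries without LPS. With LPS, it was at 145 and 137 CPM in WT and at 1774 and 1833 CPM in 3xGrk-/- libraries. Even the unstimulated 3xGrk-/- libraries were above the LPS-stimulated WT libraries. The difference between genotypes was 5.57-fold without LPS (log2 fold change 2.47 ± 0.05, with an edgeR adjusted p too small to be represented) and 12.8-fold with LPS (3.68 ± 0.06, edgeR adjusted p = 1.12e-20). Among all genes tested, these log2 fold changes ranked 140th of 12000 and 159th of 11830 from the highest. The counts cover the whole gene, so that its secreted and intracellular forms, which begin at different start sites, are not separated.

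The same genes were then compared between unstimulated and LPS-stimulated cells within each genotype, in 1 fit of all 8 libraries. In WT cells, *Casp4* rose 4.80-fold, *Mefv* 2.95-fold, *Casp1* 1.68-fold, *Il1rn* 1.61-fold and *Gsdmd* 1.17-fold, and *Nlrp1b* fell 14.6-fold, *Pycard* 1.64-fold and *Aim2* 1.16-fold. These were 8 of the 10 genes, 5 higher and 3 lower, where 60.3% of 12541 genes passed, 29.5% higher and 30.8% lower. *Nlrp3* did not pass the test in WT cells (log2 fold change -0.12 ± 0.08, edgeR adjusted p = 0.17), nor did *Il18* (-0.02 ± 0.35, edgeR adjusted p = 0.971). For *Nlrp3* the value passed as lower without replicate 2 of LPS-stimulated WT (-0.23, edgeR adjusted p = 0.0118). *Gsdmd* was not called without replicate 2 of unstimulated WT (edgeR adjusted p = 0.0512) or replicate 2 of LPS-stimulated WT (edgeR adjusted p = 0.0626), nor at a coefficient of variation of 0.1 (edgeR adjusted p = 0.215). At that coefficient 6 of the 8 genes were called, at 0.4 only 2, and 3 with the minimum fold.

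In 3xGrk-/- cells, all 10 genes passed the test, 7 higher and 3 lower, where 55.4% of the 12541 genes passed, 28.0% higher and 27.4% lower. *Mefv* rose 8.13-fold, *Casp4* 7.88-fold, *Il1rn* 3.71-fold, *Casp1* 2.96-fold, *Il18* 2.76-fold, *Nlrp3* 2.11-fold and *Gsdmd* 1.56-fold. *Nlrp1b* fell 5.15-fold, *Pycard* 1.73-fold and *Aim2* 1.18-fold. The median log2 fold change of the 10 genes was 1.26 in 3xGrk-/- and 0.11 in WT cells, beside medians near 0 over all genes. *Pycard* and *Aim2* were thus lower with LPS in both genotypes, but the small change of *Aim2* was not called by DESeq2 in either (adjusted p = 0.182 in WT and 0.154 in 3xGrk-/- cells), nor by edgeR at a coefficient of variation of 0.1 (adjusted p = 0.297 and 0.265). At a coefficient of 0.4, 4 of the 10 genes were called in 3xGrk-/- cells. The change of *Aim2* was also lost on leaving out any of the 4 3xGrk-/- libraries in 3xGrk-/- cells (edgeR adjusted p = 0.0659 to 0.156), and in WT cells on leaving out replicate 1 of unstimulated WT, either LPS-stimulated WT library or either unstimulated 3xGrk-/- library (edgeR adjusted p = 0.0508 to 0.2). With library size as the only scaling, the median of all genes moved by -0.21 in WT and by -0.22 in 3xGrk-/- cells, and the share of higher genes among those called moved from 49.0% to 31.1% and from 50.5% to 30.2%. Under that scaling 4 members were called higher and 4 lower in WT cells, with *Nlrp3* called lower (-0.34, edgeR adjusted p = 0.000341) and *Gsdmd* not called (0.0175, edgeR adjusted p = 0.839), and 7 were higher and 3 lower in 3xGrk-/- cells.

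**Figure D4:**
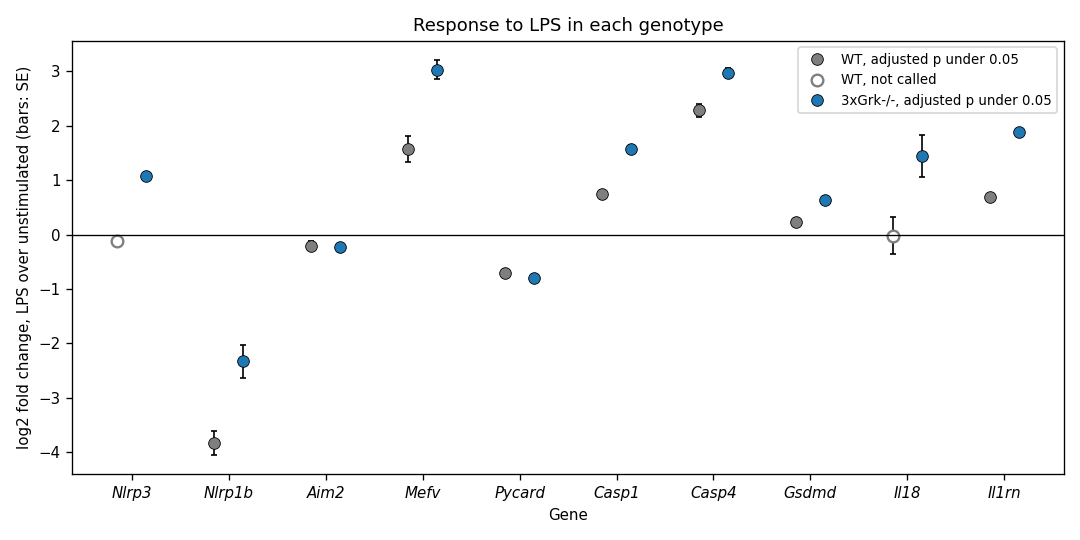
log2 fold change of LPS-stimulated over unstimulated cells for each gene in WT (grey) and 3xGrk-/- (blue), with bars of 1 standard error and open circles for values that did not pass the adjusted p of 0.05. The 8 genes whose difference passed the test lie higher in 3xGrk-/- than in WT, and the points of Pycard and Aim2 lie close together.

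Whether the response to LPS differed between the genotypes was tested directly, as the difference of the LPS response of 3xGrk-/- cells minus that of WT cells. It was above 0 for *Nlrp1b*, *Il18*, *Mefv*, *Il1rn*, *Nlrp3*, *Casp1*, *Casp4* and *Gsdmd*, 8 of the 10 genes, and below 0 for none that passed. Over all genes 32.5% passed, 16.5% above and 16.0% below 0. The median of this difference over the 10 genes was 1.01 on the log2 scale, beside a median near 0 over all genes, and all 10 macrophage markers also had a difference above 0 that passed the test. For *Il1rn* the difference was 1.20 ± 0.08 (edgeR adjusted p = 4.64e-13), for *Nlrp3* 1.20 ± 0.11 (edgeR adjusted p = 5.37e-10) and for *Casp1* 0.83 ± 0.12 (edgeR adjusted p = 2.04e-06). *Mefv* had 1.46 ± 0.34 (edgeR adjusted p = 0.0012), *Casp4* 0.69 ± 0.17 (edgeR adjusted p = 0.00195) and *Gsdmd* 0.41 ± 0.09 (edgeR adjusted p = 0.000937). That of *Gsdmd* was not called at a coefficient of variation of 0.1 (edgeR adjusted p = 0.2), where the other 7 were, while at 0.4 none of the 8 was called, and 5 were with the minimum fold.

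For *Nlrp1b* the difference of 1.5 ± 0.47 (edgeR adjusted p = 0.0148) stands for a smaller fall, since the gene began lower in 3xGrk-/- cells and ended near 2 CPM in both genotypes. It was not called without replicate 2 of LPS-stimulated 3xGrk-/- (1.07, edgeR adjusted p = 0.265). For *Il18* the difference of 1.46 ± 0.52 (edgeR adjusted p = 0.0303) was lost without replicate 2 of any of the 4 groups (edgeR adjusted p = 0.110 to 0.337) and with DESeq2 (adjusted p = 0.209). *Pycard* had a difference of -0.08 with a 95% interval from -0.30 to 0.14 (edgeR adjusted p = 0.649), and *Aim2* one of -0.03 with an interval from -0.27 to 0.21 (edgeR adjusted p = 0.887).

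Of the other genes of the pathway, 69 on 4 lists were found in the tables. Without LPS, 53 of them were tested, of which 20 were higher, 10 lower and 23 not called in 3xGrk-/- cells, where 22.1% of all genes were higher and 22.7% lower, and the median log2 fold change over these 53 was 0.11. With LPS, 58 were tested, of which 35 were higher, 8 lower and 15 not called, where 24.7% of all genes were higher and 24% lower, and the median over these 58 was 0.61. The same shares over all genes apply to the lists one by one. Further sensors such as the NAIP proteins and *Zbp1* were 4 higher and 3 lower of 9 tested without LPS, and 8 higher and 2 lower of 10 with LPS. Of the genes that trigger or restrain inflammasomes, 7 were higher and 3 lower of 17 without LPS, and 11 higher and 2 lower of 19 with LPS. The executioner genes, which hold other caspases, gasdermins and necroptosis genes, had 4 higher and 0 lower of 15 without LPS, and 6 higher and 1 lower of 15 with LPS. The IL-1 family and its receptors had 5 higher and 4 lower of 12 without LPS, and 10 higher and 3 lower of 14 with LPS.

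The largest differences on these lists without LPS were those of both IL-1 cytokines. *Il1a* was at 4.58 and 4.90 CPM in WT and at 85.4 and 92.7 CPM in 3xGrk-/- libraries without LPS, an 18.8-fold difference (log2 fold change 4.22 ± 0.13, edgeR adjusted p = 4.24e-214). *Il1b* had 12.4 and 11.1 against 80.9 and 77.3 CPM, a 6.75-fold difference (2.77 ± 0.11, edgeR adjusted p = 8.81e-131). The receptor of extracellular ATP, *P2rx7*, which opens the potassium efflux that NLRP3 senses, was 5.30-fold higher without LPS (4.77 and 4.90 against 27.3 and 23.9 CPM) and 4.61-fold higher with LPS. *Fbxl2*, a ubiquitin ligase subunit, was 2.87-fold and 2.15-fold higher, from 11 to 48 counts per library, and the second difference was not called by DESeq2 (adjusted p = 0.0707) or without replicate 2 of LPS-stimulated WT (0.83, edgeR adjusted p = 0.0675). *Il1rl1*, the receptor of IL-33, was lower by 3.12-fold without LPS and by 4.48-fold with LPS.

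With LPS, the largest differences on the lists included *Naip1*, *Pydc3*, *Il33*, *Il1a*, *Il18bp* and *Pydc4*. *Naip1*, a sensor of bacterial secretion needles that shares sequence with other *Naip* genes, had 1 count in each WT library and 35 and 39 in the 3xGrk-/- libraries, so that it was at least 12.6-fold higher against a floor of 3 counts per library. *Il33* had 2 and 6 counts in WT and 33 and 43 in 3xGrk-/- libraries. *Pydc3* and *Pydc4*, which are found in the annotation under other symbols of the HIN-200 family and resemble its other genes in sequence, were 11.5-fold and 4.74-fold higher. *Il18bp*, the secreted decoy of IL-18, was at 17.6 and 17.1 CPM in WT and at 85.7 and 89.0 CPM in 3xGrk-/- libraries with LPS (5.03-fold, edgeR adjusted p = 1.46e-13), whereas it did not pass the test without LPS (edgeR adjusted p = 0.615).

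The antagonist and the cytokines that it opposes were finally set side by side within each library, per kilobase of exon. The ratios below depend in size on these exonic lengths, which join all annotated forms. The ratio of *Il1rn* to the sum of *Il1a* and *Il1b* was 1.73 and 1.97 in unstimulated WT, 1.02 and 1.01 in unstimulated 3xGrk-/-, 0.0920 and 0.0886 in LPS-stimulated WT and 0.261 and 0.257 in LPS-stimulated 3xGrk-/- libraries. The 3xGrk-/- libraries were therefore below WT without LPS and above WT with LPS, with no overlap. An exact permutation test of 2 against 2 libraries cannot give a p below 0.333, and the ratios were not tested in another way. With LPS, *Il1a* was at 90.9 and 82.7 CPM per kb in WT and 484 and 526 in 3xGrk-/- libraries, and *Il1b* at 193 and 197 against 742 and 761. *Il1a* and *Il1b* rose less with LPS in 3xGrk-/- than in WT cells on the log2 scale, by a difference of -1.68 and -0.82 (edgeR adjusted p = 1.19e-09 and 5.81e-07), opposite in sign to that of *Il1rn*.

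**Figure D5:**
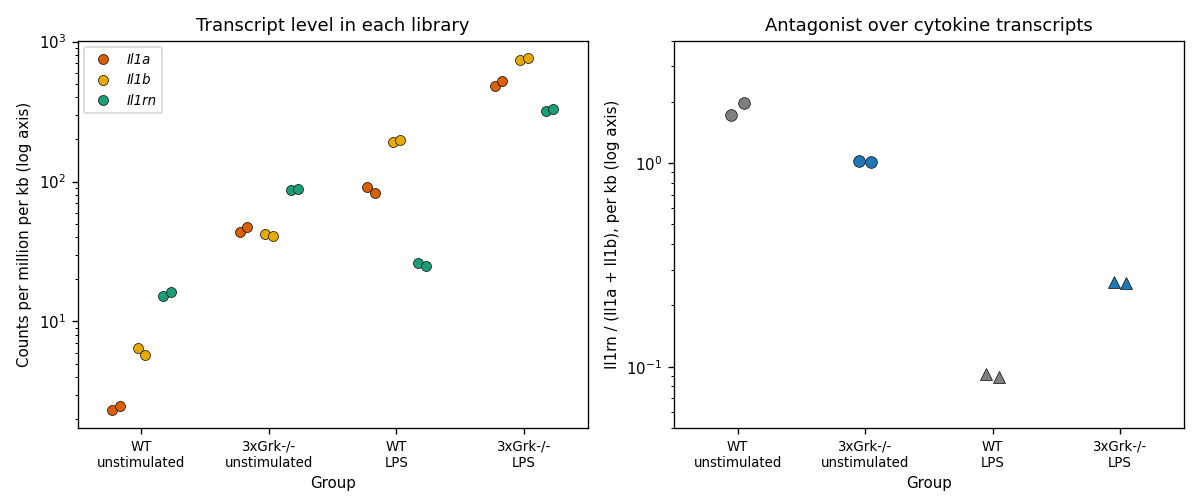
Left, CPM per kb (log axis) of Il1a, Il1b and Il1rn in the 2 libraries of each group; right, Il1rn divided by the sum of Il1a and Il1b in each library (log axis), with grey for WT, blue for 3xGrk-/- and triangles for LPS. The ratio is 1.73 and 1.97 in unstimulated WT and 0.0920 and 0.0886 in LPS-stimulated WT libraries, with both 3xGrk-/- groups between these.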

How the data were processed

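RNA of WT and 3xGrk-/- BMDCs after 8 days of culture, with or without LPS, was analysed in 8 libraries, 2 in each of 4 groups taken from the labels. Per the study's methods, the authors ran snakePipes 2.1.0, with STAR 2.7.3a as aligner to mm10 and featureCounts 2.0.0 as counter. The deposited values are raw counts of reads per gene in 1 table for each stimulation. The annotation release is not given in the sources used here, nor is the strand setting of the counting, although a stranded kit was used, so that overlapping genes on opposite strands cannot be told apart with certainty.

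Names, coordinates and exonic lengths were taken from GENCODE M21 on GRCm38, which named 47310 of 47937 IDs, and 0.0468% of the counts lay on the others. *Pydc3*, *Pydc4* and the *Il36* genes were found through RefSeq synonyms, and 1 of 70 listed pathway names had no match. Genes were tested with edgeR 4.0.16 (TMM scaling, filterByExpr, quasi-likelihood test) in R 4.3.3, with p adjusted over all genes by Benjamini-Hochberg and a threshold of 0.05. Genotypes were compared on the 4 libraries of each stimulation, and LPS responses and their difference on 1 fit of all 8, in which the joined tables share one spread. SE is the log2 fold change over the root of the F statistic. CPM are counts scaled to 1000000 reads on TMM library sizes of all 8 libraries. The scripts were tested on simulated data. Libraries held 4713305 to 6933358 reads on genes, and intervals cover the fitted spread only. Pairs of libraries differed by more than sampling noise, with chi-square values per gene of 1.59 to 9.02 on average and of 1.16 to 1.92 by the median, the highest average being that of LPS-stimulated 3xGrk-/- libraries (median 1.3).

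The 10 genes and all lists were chosen with earlier results of these data known. Of the other genes of the pathway, those named passed the test in a genotype comparison and were among the 6 with the largest log2 fold change there, counted over all lists. *Zbp1*, *Gm45205* and *Nlrp1a* are mentioned as examples outside this rule, *Cd3e* for its counts of 0, and *Nlrc4*, *Fcgr1*, *C1qa*, *C1qb* and *C1qc* after their values were seen. Alternatives were DESeq2 1.42.0, 2 other scalings, 2 other filters, fixed coefficients of variation of 0.1 and 0.4, a replicate block, leaving out each library, a minimum fold and other sets of libraries.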

Additional observations from a re-analysis of the deposited data

Results flagged for a closer look

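The effect of the genotype on 8 of the 10 genes differed between unstimulated and LPS-stimulated cells, by the test of the difference itself (edgeR's quasi-likelihood test, adjusted p under 0.05 over all genes), where 32.5% of all genes passed, 16.5% above 0. The log2 fold change of 3xGrk-/- over WT was larger with than without LPS by 1.5 for *Nlrp1b*, 1.46 for *Il18*, 1.46 for *Mefv*, 1.20 for *Il1rn*, 1.20 for *Nlrp3*, 0.83 for *Casp1*, 0.69 for *Casp4* and 0.41 for *Gsdmd*. Only for *Nlrp3* were the fold changes of both stimulations called and opposite in sign. The value of *Nlrp1b* rests on 7 to 15 counts per LPS-stimulated library, and that of *Il18* on 8 to 32 counts per library. Without replicate 2 of LPS-stimulated 3xGrk-/-, that of *Nlrp1b* was 1.07. The value of *Il18* was 0.92 without replicate 2 of unstimulated WT, and DESeq2 did not call it (adjusted p = 0.209). All 10 macrophage markers also had such a difference above 0, and their part in these values was not tested. Groups of 2 libraries were too small for a test of single libraries that lie apart.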

How the results depend on the processing

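Over all named genes and alternatives, 1406 values kept direction and call, 98 lost the call, 2 gained it and 14 changed sign. Genes called went from 5369 without LPS to 3086 with DESeq2, 2905 and 448 at fixed coefficients of variation of 0.1 and 0.4, and 1444 with a minimum log2 fold change of 1 in either direction, and members called went from 9 to 5, 1 and 3 under the last 3. With LPS, 5754 genes became 782 at 0.4 and 1984 with the minimum fold, and 8 members became 2 and 4. In the WT response, 7561 genes became 1110 and 2700 and 8 members became 2 and 3. In the 3xGrk-/- response, 6945 genes became 850 and 2373, and 10 members became 4 at 0.4. In the difference between responses, 4070 genes became 2643 with DESeq2, 2161 at 0.1, 72 at 0.4 and 1375 with the minimum fold, and 8 members became 0 at 0.4 and 5 with the minimum fold. A larger fixed spread or minimum fold calls fewer genes by construction. Leaving out 1 library gave 4253 to 4788, 4460 to 5712, 6417 to 7601, 5844 to 7410 and 3328 to 4199 genes in these 5 comparisons, and 8 to 9, 7 to 8, 7 to 8, 9 to 10 and 6 to 8 members; a lone library is then assumed to vary like the others.

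Changes of sign concerned small or thinly counted values, and the cause was not tested. *Il18* in the WT response had a log2 fold change of 0.0368 with DESeq2, 0.0446 at a coefficient of 0.4 and -0.36 to 0.54 on leaving out 1 library. Leaving out 1 library gave -0.63 to 0.0844 for *Nlrp1b* with LPS, -0.37 to 0.22 for *Il18bp* without LPS, -0.56 to 0.0340 for *P2rx7* and -0.00948 to 0.63 for *Fbxl2* in the WT response, -0.19 to 0.0824 for *Fbxl2* in the 3xGrk-/- response, and -0.0596 to 0.0424 for *Aim2* and -0.48 to 0.12 for *P2rx7* in the difference between responses. With at least 10 counts in every library that of *Aim2* was 0.00769.

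Whether same-numbered libraries of different groups belong together is not stated in the sources used here. Their deviations correlated at -0.0184 to 0.0327. Differences within pairs held much sampling noise (chi-square per gene of 1.16 to 1.92 by the median), so these correlations cannot exclude a shared origin. A replicate block gave 5292, 5654, 7438, 6793 and 3884 genes and 9, 8, 8, 10 and 8 members. Depth limits *Il18*, *Nlrp1b* with LPS and *Mefv* without LPS, which have few counts.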
